A study of Mus musculus with 20 samples.

Results

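The genes described here are 8 SOX transcription factors, Sox2, Sox4, Sox7, Sox11, Sox13, Sox15, Sox17 and Sox18, chosen by gene symbol among the 18194 genes named on a mouse expression array. They were measured by 22 probe sets, the short DNA probe groups that each report on 1 transcript region. The samples were 20 cells picked singly from inner cell masses of C57BL/6 blastocysts at embryonic day 3.5, with the amplified cDNA of 1 cell on each array. All 20 cells formed 1 group, with no treatment or mutant to compare, and no label names the embryo of a cell. Per the series design, 55 cells were picked and 50 were kept as positive for Oct4 (Pou5f1) and negative for Cdx2 in a PCR screen, so Pou5f1 and Cdx2 describe that choice.

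SOX proteins bind DNA through a shared high-mobility-group domain and usually act beside a partner factor. In the inner cell mass Sox2, of the SOXB1 group, pairs with the Pou5f1 protein on composite OCT-SOX elements of pluripotency genes and is required in the epiblast, which forms the embryo itself. Sox17, of the SOXF group with Sox7 and Sox18, is a factor of endoderm, including the primitive endoderm that lines the blastocyst cavity. Sox4 and Sox11 are SOXC factors of neural and other progenitors, Sox13 is a SOXD factor, and Sox15 is a SOXG factor present in mouse embryonic stem cells.

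Of the members, 5 matched an entry of RefSeq's promoter table (build GRCm38.p6): Sox2, Sox4, Sox11, Sox13 and Sox15. The 250 bases before the annotated start are shown for the 3 of these that were detected in the most cells, so that their upstream sequences can be set beside their patterns. Each runs 5′ to 3′ on the gene's strand. Capitals mark matches, on either strand, to the SOX-type cores ACAAAG and ACAAT, to ATGCAA (the first bases of the octamer ATGCAAAT bound by POU factors), to the GATA core AGATAA and to the CCAAT box.
Sox2, chr3:34649745-34649994, plus strand: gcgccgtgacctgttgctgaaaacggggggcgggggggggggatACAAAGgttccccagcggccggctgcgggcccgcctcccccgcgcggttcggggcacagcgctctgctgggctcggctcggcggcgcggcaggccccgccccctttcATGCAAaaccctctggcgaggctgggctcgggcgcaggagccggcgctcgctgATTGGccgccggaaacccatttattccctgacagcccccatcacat
Sox13, chr1:133424213-133424462, minus strand: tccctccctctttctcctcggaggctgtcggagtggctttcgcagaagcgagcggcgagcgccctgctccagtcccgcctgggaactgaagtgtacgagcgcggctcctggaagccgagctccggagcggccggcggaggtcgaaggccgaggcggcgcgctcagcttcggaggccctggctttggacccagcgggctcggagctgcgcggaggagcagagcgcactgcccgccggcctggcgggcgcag
Sox15, chr11:69654787-69655036, plus strand: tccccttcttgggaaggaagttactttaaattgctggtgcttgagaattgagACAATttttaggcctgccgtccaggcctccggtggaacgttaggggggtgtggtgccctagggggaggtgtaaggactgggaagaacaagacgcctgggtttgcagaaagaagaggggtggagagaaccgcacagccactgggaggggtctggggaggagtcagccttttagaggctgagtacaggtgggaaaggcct

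The Sox2 window held ACAAAG starting 206 bases before the start, ATGCAA 99 bases before it and a CCAAT box on the opposite strand 46 bases before it. The Sox15 window held ACAAT 198 bases before the start, and the Sox13 window held none of these letters. Such matches are common: of 32851 promoter windows of the same length, 16.5% held ACAAAG, 27.7% ACAAT, 9.45% ATGCAA, 9.99% AGATAA and 33.8% CCAAT. The full octamer ATGCAAAT stood in 1.6% of the windows and in none of these 3. Both Sox2 (72.0% G or C) and Sox13 (72.4%) had GC-rich windows, against 55.6% for Sox15.

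Levels are given as log2(intensity + 8.77) after quantile normalization, for the brightest probe set of each gene, and the lowest level possible is 3.29. A gene counted as detected in a cell when its level was above the floor of that array, set at the 95th percentile of 222 probe sets for chemosensory receptors and genes of unrelated adult tissues. The floors lay between 6.67 and 7.40. The median deposited intensity was 15 in cell 19 and between 25.6 and 30.2 in the others, and all 11 reference genes on the array were detected in all 20 cells. Pou5f1 was detected in all 20 cells as well. Trophectoderm markers detected numbered 2 to 6 of 13 per cell, and the Cdx2 screen was made before the arrays. Levels of different genes come from different probes and are not set against each other.

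Sox2 and Sox17 were the members with strong signals, Sox13 came and went between cells, Sox15 and Sox4 were above the floor in few cells, and Sox7, Sox11 and Sox18 were under it in all 20 cells by the probe set used. Sox2 was detected in 18 cells, Sox13 in 12, Sox17 in 11, Sox15 in 4 and Sox4 in 3. Detection in at least 3 cells was met by 5 of the 8 members and by 52.9% of all 18194 genes. With the floor at the 99th percentile, Sox2, Sox13 and Sox17 met it.

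To place the members in the 2 lineages, the cells were clustered on 500 variable genes that included no SOX gene and no lineage marker. The 10 cells called epiblast-like, or EPI-like (1, 2, 7, 9, 12, 13, 14, 16, 18 and 19) had Fgf4 and Klf2 among their 10 leading genes. The 10 called primitive endoderm-like, or PrE-like (3, 4, 5, 6, 8, 10, 11, 15, 17 and 20) had Cubn, Pdgfra, Gata4, Fgfr2, Gata6 and Lama1 among theirs. Of 11 epiblast markers, EPI-like cells had 6 to 9 detected and PrE-like cells 4 to 7. Of 15 primitive endoderm markers on the array, EPI-like cells had 5 to 10 and PrE-like cells 11 to 12. Differences between clusters are descriptions with no test, since clusters were made from these cells. They run as EPI-like minus PrE-like.

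**Figure D1:**
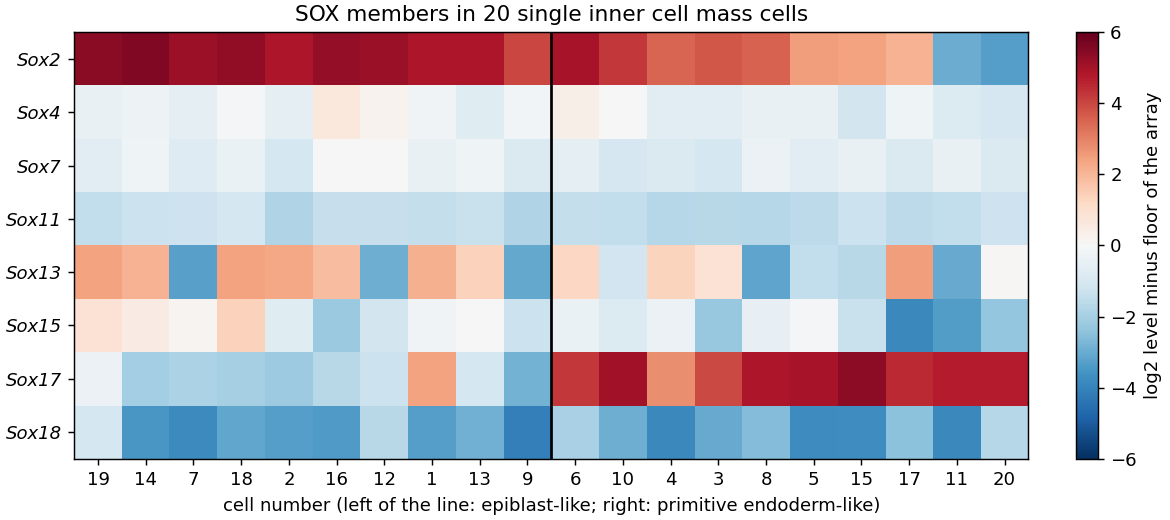
Log2 level minus the floor of the array (colour) for each member (rows) in each of the 20 cells (columns, by cell number), with EPI-like cells left of the black line and PrE-like cells right of it, each sorted by Sox2. Sox2 is red in 18 cells and blue in cells 11 and 20, while Sox17 is red in all 10 cells on the right and in cell 1 on the left.

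Sox2 was high and even in every EPI-like cell and uneven in the PrE-like cells. In the EPI-like cells its lowest, median and highest levels were 11.43, 11.96 and 12.45. In the PrE-like cells they were 3.62, 10.15 and 11.99. The means were 11.97 ± 0.33 in EPI-like and 9.17 ± 2.92 in PrE-like cells (SD, n = 10 each), a difference of 2.79 that was smaller than the spread of the PrE-like cells. Cells 11 and 20, with levels of 4.17 and 3.62, were the only cells under the floor.

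Without cells 11 and 20 the Sox2 difference was smaller and kept its direction. The 8 PrE-like cells with Sox2 averaged 10.49 ± 1.004 (SD), against which the 10 EPI-like cells were 1.47 higher on the log2 scale, or 2.78-fold. Of these 8 cells, 6 lay under the lowest EPI-like cell, and cells 6 and 10 (11.99 and 11.52) lay within the EPI-like range. The split by detection was chosen after the values were seen. Cells 11 and 20, like all the cells, had all 11 reference genes detected. They had 25.3% and 27.1% of their probe sets above the floor, within the range of 23.5% to 29.3% over all cells. Over genes detected in at least 3 cells, Pearson's r with the other cells averaged 0.66 for cell 11 and 0.61 for cell 20. It ran from 0.59 (cell 4) to 0.67 (cell 12). Such checks cannot show whether a single transcript was missed in a cell, which was not tested. Sox2 was read by 1 probe set, so no other could be set beside it.

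Sox17 split the cells almost as the clusters did. Its lowest, median and highest levels were 4.57, 5.11 and 9.36 in the EPI-like cells, and 10.08, 11.77 and 12.37 in the PrE-like cells. The ranges did not overlap, which held for 0.27% of the 9626 genes detected in at least 3 cells and among the members for Sox17 alone. The means were 5.64 ± 1.44 in EPI-like and 11.63 ± 0.69 in PrE-like cells (SD, n = 10 each), a difference of -5.99. After raising values under the floor to it, the difference was -4.46, or 22.0-fold.

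The EPI-like cell with Sox17 was cell 1, at 9.36. The next EPI-like value was 6.68 in cell 19, under its floor of 7.04. The other Sox17 probe set gave the same call in 20 of 20 cells and read 9.87 in cell 1. Cell 1 otherwise had the epiblast side of the markers, with Fgf4 at 12.21, Nanog at 12.44 and Klf2 at 11.62. It had Gata4 at 3.29, the lowest level possible, and Gata6 at 4.74, and was above the floor for Pdgfra at 7.74.

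**Figure D2:**
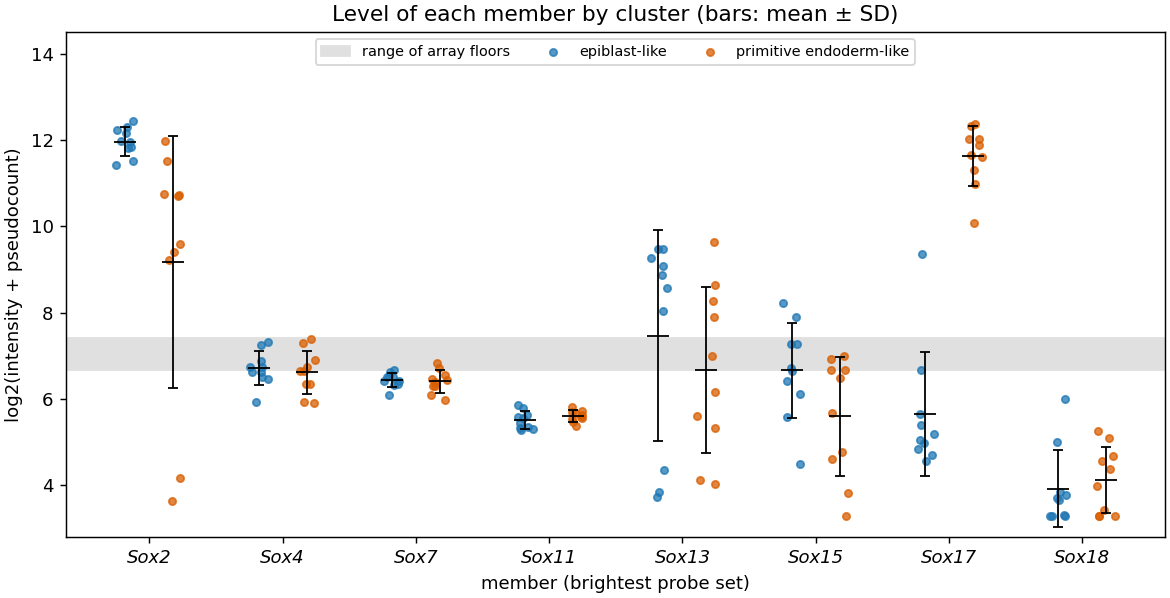
Log2 level of each member (x axis, brightest probe set) in each cell (points), with EPI-like cells left of PrE-like cells, black bars for the mean ± SD over 10 cells, and a grey band for the range of array floors (6.67 to 7.40). Sox17 shows 2 separate bands of cells, Sox2 shows 18 high cells and 2 low ones, and Sox7, Sox11 and Sox18 lie under the floors of their arrays.

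Set against each other in each cell, Sox2 and Sox17 were not exclusive, but their overlap was the smallest that their counts allow. Both were detected in 9 cells, Sox2 alone in 9, Sox17 alone in 2 and neither in 0. With Sox2 in 18 and Sox17 in 11 of the 20 cells, fewer than 9 cells with both was not possible. The 9 cells without Sox17 had Sox2 between 11.43 and 12.45, with a median of 11.97. The 11 cells with Sox17 had Sox2 between 3.62 and 11.99, with a median of 10.71. The 9 cells with both genes were cell 1 and 8 PrE-like cells. The same 4 counts were found with values as deposited and with the second brightest Sox17 probe set.

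Among the 9 cells with both genes, the relation of the levels was uncertain, and its size depended on single cells. Pearson's r was -0.46 and Spearman's rho -0.50 over these 9 cells, and r was -0.34 over 7 cells without the 2 farthest from the median Sox2 level (cells 15 and 17). Without cell 1, the EPI-like cell among them and the one with the lowest Sox17, r was -0.25 over 8 cells. Without cell 10, r was -0.65 and rho -0.71 over 8 cells. As cells share reagents and possibly embryos, these are descriptions. Cell 15 had the highest Sox17 of all (12.37) and Sox2 at 9.41. Cell 10 went the other way, with Sox2 at 11.52 and Sox17 at 12.33. No r is given over all 20 cells, because both genes fell into separate ranges.

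**Figure D3:**
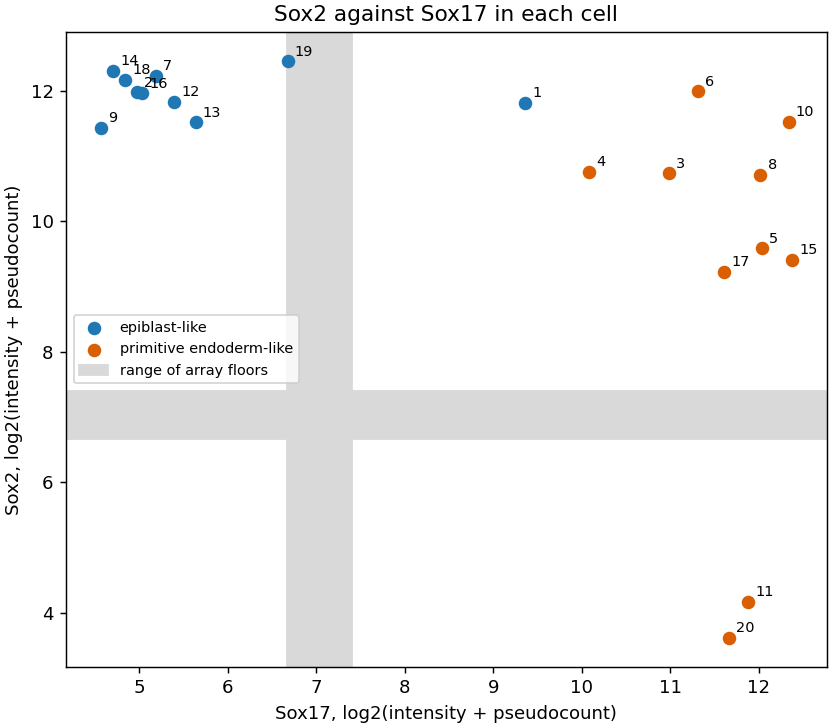
Sox2 (y axis) against Sox17 (x axis) in each of the 20 cells, both as log2(intensity + pseudocount), with cell numbers beside the points and grey bands for the range of array floors. The points form 3 groups, with 9 EPI-like cells at upper left with Sox2 alone, 9 cells at upper right with both genes, and cells 11 and 20 at lower right with Sox17 alone.

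Cell 6 had the highest Sox2 of the PrE-like cells (11.99) together with Sox17 at 11.31. Its Nanog level was 11.83 and its Klf2 level 10.49, but Fgf4 was at 3.29, the lowest level possible, and 5 epiblast markers were detected, against 7 in cells 8 and 10. Gata4, a zinc finger factor of endoderm, was 7.37 in cell 6, the lowest of that cluster. Cell 6 was also the 1 cell that changed sides when 1000 genes were clustered. Over the 8 cells with both Sox2 and Gata4, r was -0.67 and rho -0.57, and r was -0.64 over 6 cells without the 2 farthest from the median. Without cell 6, r was -0.37 over 7 cells, so the value rests largely on that cell.

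Fgf4, the growth factor gene with an OCT-SOX element, was detected with Sox2 in 10 cells and without it in 0. Sox2 was detected without Fgf4 in 8 cells. As Sox2 was detected in 18 of the 20 cells, few cells could have Fgf4 without it. Klf2 was detected with Sox2 in 14 cells and without it in 0, and Nanog in 15 and 2. Sox17 was detected with Fgf4 in 1 cell (cell 1), and Fgf4 alone in 9. All 10 cells with Gata4 had Sox17, and Gata6 was detected without Sox17 in 4 cells. Cells 11 and 20, without Sox2, had Nanog above the floor at 9.55 and 8.19. As cells were kept as Pou5f1-positive, their Pou5f1 levels of 11.32 and 10.16 describe that choice.

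The SOXD gene Sox13 was present in some cells of both clusters. Its lowest, median and highest levels were 3.73, 8.71 and 9.47 in the EPI-like cells, where 7 of 10 were above the floor. They were 4.03, 6.57 and 9.64 in the PrE-like cells, where 5 of 10 were above it. The means, 7.46 ± 2.45 in EPI-like and 6.66 ± 1.93 in PrE-like cells (SD, n = 10 each), differed by 0.80, within the spread of both clusters. Its highest level was in cell 17, a PrE-like cell, and its lowest in cell 12, an EPI-like one. Sox13 was detected with Sox17 in 6 cells, without it in 6, and missing from 5 cells with Sox17. With the floor at the 99th percentile it was detected in 6 cells.

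Sox15 was dim and was detected in EPI-like cells 7, 14, 18 and 19 and in 0 PrE-like cells. Its lowest, median and highest levels were 4.48, 6.68 and 8.23 in the EPI-like cells. In the PrE-like cells they were 3.29, 6.08 and 6.999. The mean difference was 1.07, with SDs of 1.11 in EPI-like and 1.38 in PrE-like cells, and it was 0.11 with values raised to the floor, so most of it lay under the floor. Among the PrE-like cells, cell 5 read 6.999 against its floor of 7.07, while cells 17 and 11 were far under theirs at 3.29 and 3.81. Floors averaged 6.92 in the EPI-like and 7.11 in the PrE-like cells. Their part in the Sox15 count and in its raised difference was not tested. A gene under the floor in all cells, such as Sox7, reads -0.19 after raising, from the floors alone. With the floor at the 99th percentile Sox15 was detected in 1 cell, and at the 90th in 11.

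The SOXC members Sox4 and Sox11 gave little signal, and their probe sets disagreed. Sox4 read 5.93 to 7.31 in the EPI-like and 5.90 to 7.39 in the PrE-like cells by the probe set used, with a difference of 0.09. It was detected in cells 6, 12 and 16. Of its 7 other probe sets, 6 were above the floor in 0 cells, and 1433575_at read 9.05 in cell 3 and was under the floor in the 19 others. With the floor at the 90th percentile Sox4 was detected in 17 cells, so its count depends on the floor.

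Sox11 was under the floor in all 20 cells by its brightest probe set on average, which was nearly flat (5.27 to 5.86, SD 0.17). Another Sox11 probe set, 1436790_a_at, was above the floor in cells 1, 2, 3, 7 and 12, of which 4 are EPI-like, with a highest level of 8.65. Its median was 4.37, and its levels had rho = -0.25 with those of the flat probe set over the 20 cells. Another, 1429051_s_at, was above the floor in cell 14. The Sox11 value therefore depends on the probe set.

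Sox7 and Sox18, of the same SOXF group as Sox17, were not detected above the floor in any of the 20 cells. Sox7 read 5.98 to 6.82 by 1 probe set and 3.29 to 5.92 by the other. Sox18 read 3.29 to 5.99 by its 1 probe set. Among SOXF genes Sox17 alone was detected, in 11 cells. With the floor at the 90th percentile Sox7 was above it in 14 cells, and Sox18 in 0.

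**Figure D4:**
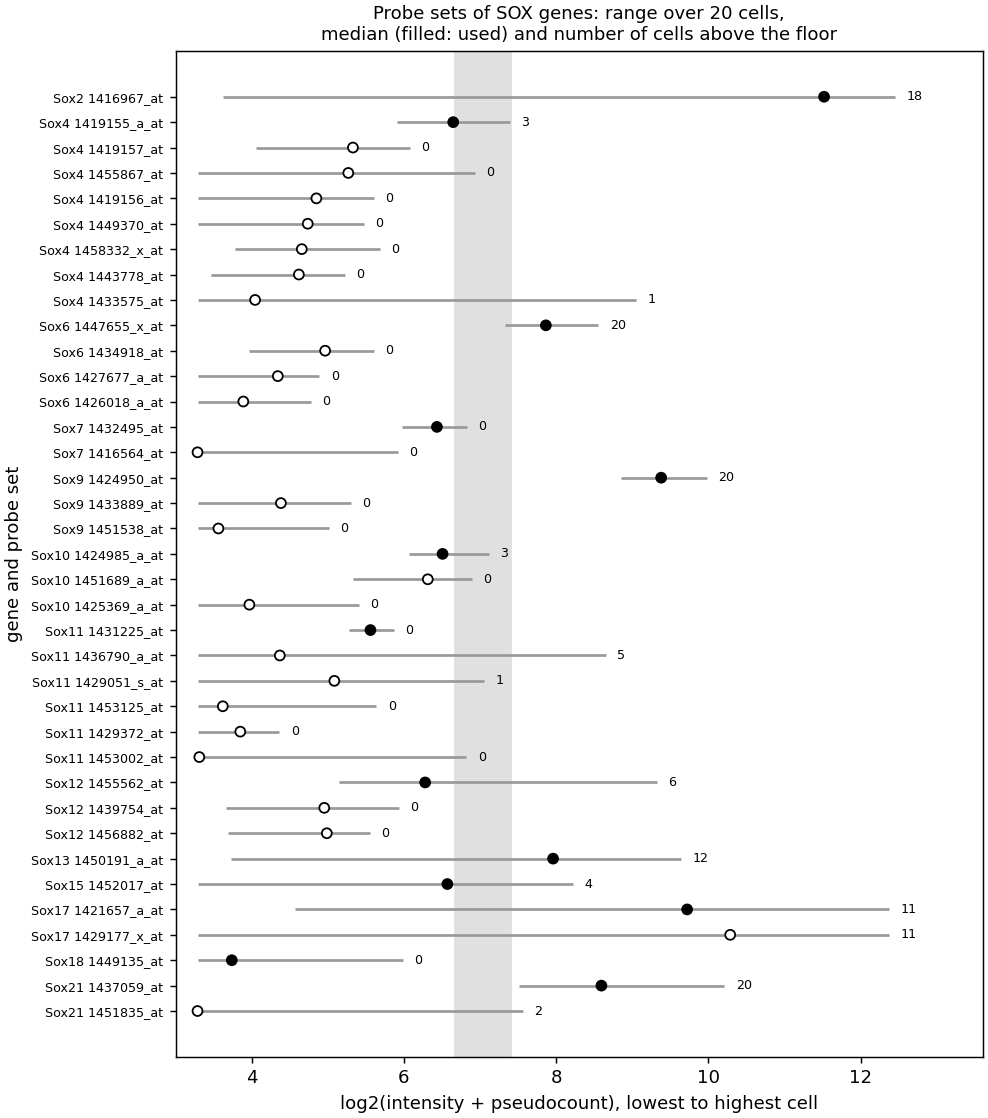
Range of levels over the 20 cells (grey line, lowest to highest), median (circle, filled for the probe set used) and number of cells above the floor (digits) for each probe set of the members and of the other SOX genes detected in at least 3 cells. The grey band is the range of array floors. Both Sox17 probe sets span low and high cells, whereas the Sox9 and Sox6 probe sets used are narrow and their other probe sets are under the floor.

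Of 11 other SOX genes, 5 were detected in at least 3 cells by the probe set used. Sox21, a SOXB2 gene, was above the floor in all 20 cells (7.51 to 10.21) by 1 probe set and in cells 6 and 17 by the other. Sox9, a SOXE factor, read 8.85 to 9.98 in all 20 cells with an SD of 0.26, while its 2 other probe sets were above the floor in 0 cells. Sox6 showed the same contrast, with 7.33 to 8.55 in all 20 cells against 0 cells by 3 other probe sets. Sox12, a SOXC gene, was detected in 6 cells and Sox10 in 3. Sox1, Sox3, Sox5, Sox8, Sox14 and Sox30 were above the floor in 0 cells. The 2 other probe sets of Sox12 and of Sox10 were each above the floor in 0 cells. For Sox6, Sox9, Sox10 and Sox12, detection thus rests on 1 probe set, and for Sox21 it does in 18 of the 20 cells.

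The difference between clusters reached 1 on the log2 scale for 3 of the 5 members tested, Sox2, Sox15 and Sox17, against 19.6% of the 9626 genes tested. Sox2 and Sox15 were higher in the EPI-like cells (11.6% of genes) and Sox17 in the PrE-like cells (7.97%). With values raised to the floor, 2 members reached it, since Sox15 no longer did. Without cell 19, 2 members reached it, with Sox15 at 0.94. With clusters made from 1000 genes, 4 members reached it, with Sox13 at 1.05.

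The test across all genes asked which genes varied more over the 20 cells than genes of the same mean level. By limma's F test against the variance trend, with Benjamini-Hochberg adjustment over 9626 genes, 0 genes passed at 0.05 (0% of genes), and 26 had an unadjusted p under 0.05 (0.27%). Sox2 ranked at 10 by variance ratio (25.7, unadjusted p = 0.0286, limma adjusted p = 0.736). Sox17 ranked at 29 (14.9, p = 0.0514, adjusted p = 0.736) and Sox13 at 712 (7.11, p = 0.111, adjusted p = 0.736). Sox15 (1.82) and Sox4 (0.26) had limma adjusted p of 0.766 and 1. Over the alternatives the adjusted p of Sox2 lay between 0.731 and 0.828. Fgf4, detected in all 10 EPI-like and 0 PrE-like cells, had a ratio of 26.9 and a limma adjusted p of 0.736. As the test did not call even such a split, its 0 does not show that Sox2 or Sox17 varied like other genes.

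The OCT-SOX partners and targets were mostly present in both clusters, and a few had a clearly higher mean in the EPI-like cells. Of 15 listed genes 14 were on the array and 13 were tested, with a median difference of 0.44 (0.05 over all tested genes). In 11 the EPI-like mean was higher, against 5274 of all 9626 tested genes. In 5 of the 11 it was higher by at least 1, against 11.6% of all tested genes. Those 5 were Fgf4, the factor Nanog, Klf2, Prdm14 and Utf1. Fgf4 was detected in all 10 EPI-like and 0 PrE-like cells. Nanog averaged 12.17 ± 0.16 in EPI-like and 7.90 ± 2.82 in PrE-like cells (SD, n = 10 each), and was above the floor in 10 EPI-like and 7 PrE-like cells. Utf1, a chromatin-bound pluripotency factor, was in all 20 cells, at 10.82 ± 0.59 in EPI-like and 9.44 ± 1.41 in PrE-like cells. Pou5f1, Fbxo15, Zfp42 and Tdgf1 differed by 0.25 to 0.44, and Sall4 (-0.22) and Dppa4 (-0.18) ran slightly the other way. Lefty1, a Nodal inhibitor gene, was detected in 0 cells.

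The endoderm factors and targets were mostly higher in the PrE-like cells, as Sox17 was. Of 15 listed genes 14 were on the array and 12 were tested, with a median difference of -3.50. In 11 the PrE-like mean was higher, each by at least 1, against 7.97% of all tested genes. Of the listed genes not tested, Dab2 was detected in 0 cells and Foxa2 in PrE-like cells 4 and 20. Gata4 was detected in 0 EPI-like and 10 PrE-like cells, and Gata6 in 4 EPI-like and 10 PrE-like cells. Pdgfra, the receptor gene, was detected in 5 EPI-like and 10 PrE-like cells, with means of 6.24 ± 3.21 in EPI-like and 12.13 ± 0.24 in PrE-like cells (SD, n = 10 each). Foxq1, a forkhead factor, was detected in 0 EPI-like and 6 PrE-like cells. Hnf4a, a nuclear receptor gene, was the exception, at 9.05 ± 1.40 in EPI-like and 6.61 ± 2.98 in PrE-like cells. Many genes of both lists also served to name the clusters, so their direction is not independent of the naming.

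**Figure D5:**
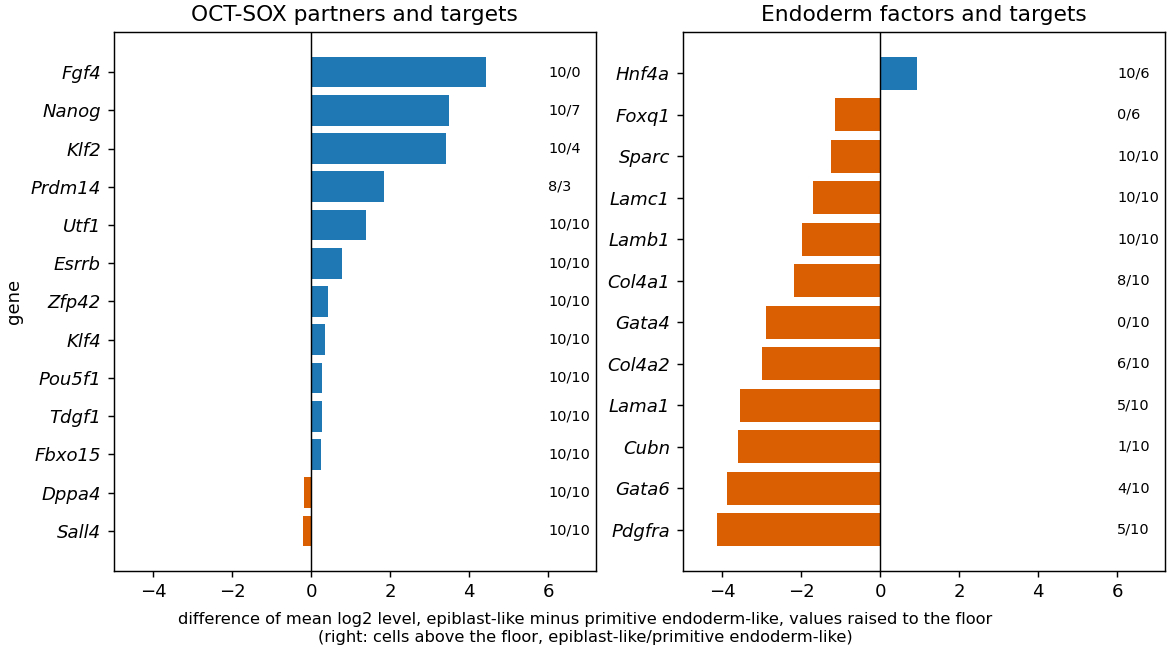
Difference of mean log2 level, EPI-like minus PrE-like, after raising values under the floor to it (bars), for the tested genes of the OCT-SOX list (left) and of the endoderm list (right). The digits at the right of each panel are the cells above the floor in the EPI-like and the PrE-like cluster. A gene under the floor in all cells would read -0.19, the difference of the mean floors. Fgf4, Nanog and Klf2 have the longest bars to the right, while Pdgfra, Gata6, Cubn and Lama1 have the longest to the left.

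The genes with the pattern most like each detected member were ranked by Spearman's rho over the 20 cells, among 9625 other genes. It was computed on the signal over the floor, so all levels under the floor are tied. For genes that differ between the clusters, rho over all 20 cells carries that difference and does not describe the relation within a cluster. For Sox2 the highest were Pde1a (a cyclic nucleotide phosphodiesterase gene, rho = 0.91), Mymx (0.90), Ei24 (0.90), Rnf213 (0.86) and Bicral (0.86). Rnf213 was also high by Pearson's r (0.86), whereas Pde1a had r = 0.51. The lowest for Sox2 were Gata4 (-0.86), Smco4 (-0.85), Gask1b (-0.84), the collagen prolyl hydroxylase gene P4ha2 (-0.82) and the MAP kinase phosphatase gene Dusp4 (-0.82).

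For Sox17 the highest were the syndecan gene Sdc4 (rho = 0.83), Phlda1 (0.82), Uap1 (0.81), Gpat3 (0.81) and Gata4 (0.80). The lowest for Sox17 were Atg16l2 (-0.87), Bcl2l14 (-0.83), Ei24 (-0.83), Nipal1 (-0.82) and the heat shock co-chaperone gene Dnaja1 (-0.82). Ei24 thus stood among the nearest genes of Sox2 and among the farthest of Sox17, and Gata4 the reverse. Atg16l2 was detected in 10 cells, of which 1 had Sox17. For Sox13 the nearest were 1700034G24Rik (0.85), Tmem184b (0.84) and Kank2 (0.78), of which Kank2 was detected in all 12 cells with Sox13 and in 4 others. Of these 23 list places, of which Ei24 and Gata4 each hold more than 1, 7 were kept when genes were ranked by Pearson's r. The order therefore depends on the measure.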

How the data were processed

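The deposited values are probe set intensity on a linear scale, 1 to 26616, with 1 cell per array. Per the labels' protocols, cDNA was amplified by PCR from the lysate and labelled by the one-cycle Affymetrix method. Of the summarising software, background correction and scaling, nothing is stated in the labels.

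The 2%-trimmed means of the arrays, 182.5 to 221.2, lay more than 5% apart, so arrays were quantile normalized. The pseudocount, 8.77, was taken as the 25th percentile of an array (median of 20 arrays). Probe sets with 1 gene in GEO's annotation were used (34958), and a gene took its probe set with the highest mean. The 9626 genes detected in 3 or more cells were tested with limma 3.58.1 (R 4.3.3, squeezeVar with a mean trend). Clusters came from Ward's method (scipy 1.17.1). The variance test and the ranking by rho were tried on simulated normal values. For the variance test, unchanged genes were given variances exactly on the trend, unlike these data, so the trial does not show its power here. The number of arrays limits the precision. The p-values set a gene's variance over these cells against the trend of other genes, and embryos are not named. Pairs of arrays with most values equal numbered 0. No doublet caller was run on these singly picked cells.

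The members and lists were chosen with earlier results of these data known. Named genes were all 8 members, other SOX genes detected in at least 3 cells, the 5 highest and 5 lowest by rho for Sox2 and Sox17, the 3 highest for other members in at least 5 cells, and 2 lists. SOX genes under the floor, Lefty1, Dab2, Foxa2 and the single probe sets discussed were named after their values were seen.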

Additional observations from a re-analysis of the deposited data

How the results depend on the processing

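The counts of members detected in at least 3 cells (5), of cells with both Sox2 and Sox17 (9), of genes past the variance test (0) and of members that differed by at least 1 between clusters (3) stayed within 1.5 times under the alternatives, with 1 exception. With the floor at the 99th percentile, 3 members were detected in at least 3 cells. Ranked by Pearson's r, 7 of the 23 list places for genes most or least like a member were kept in the matching list. The cause was not tested for these 2 shifts. Cells with both genes numbered 8 to 10 over the alternatives, 8 of them with the floor at the 99th percentile and 10 at the 90th. The variance test called 0 genes by limma under all 7 alternatives, with 23 to 434 genes at an unadjusted p under 0.05. Clustering on 250 genes, on deposited values, with the other pseudocount, with values raised to the floor, with the mean of all probe sets and without cell 19 moved 0 cells, and 1000 genes moved cell 6. No sign of a member difference of at least 1 changed. The difference of Sox4 changed sign, to -0.14 with values raised to the floor and -0.0945 with the mean of all probe sets. Mean floors themselves differed by -0.19 between clusters, which raised values carry, and their part in the -0.14 was not tested. Leaving out each cell in turn, chosen after seeing the data, gave r between -0.65 and -0.25 for Sox2 with Sox17 and between -0.74 and -0.37 for Sox2 with Gata4. No paired analysis was possible because all cells belong to 1 group. Signal over the floor limits what can be said of Sox4, Sox7, Sox11, Sox15 and Sox18.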
